A study of Mus musculus with 5 samples.

Results

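Hox genes encode the homeodomain transcription factors that set position along the head-to-tail axis of the mouse embryo. They were taken here as every gene of a pooled CRISPR knockout library whose symbol was Hoxa, Hoxb, Hoxc or Hoxd followed by a number. The rule found 37 Hox genes among the 1682 genes of the library, targeted by 370 guides (10 per gene) among 17820. Hoxa13 and Hoxc9, which complete the 39 Hox genes of the mouse RefSeq annotation, were not among the guides analysed here. RefSeq (GRCm38.p6) places the library's 10 Hoxa genes on chromosome 6, the 10 Hoxb genes on chromosome 11, the 8 Hoxc genes on chromosome 15 and the 9 Hoxd genes on chromosome 2.

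The screen followed guide abundance in mouse embryonic stem cells of genotype Ainv15(iNgn2 Tubb3::GFP), a line that by its name carries an inducible Ngn2 transgene and a GFP reporter at Tubb3. Lentivirus delivered the guide library, and the cells were kept in ES medium under Zeocin, the drug that selects transduced cells. Reads over guides were counted in 2 libraries of the plasmid pool, the input, and in 1 library each of transduced cells at days 5, 8 and 12. The labels give the same genotype and "No treatment" for all 5 libraries. Each day is therefore a single library, the labels do not say whether the days are serial samples of 1 culture, and cell identity and cutting by each guide cannot be checked in guide counts.

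Hox genes lie in 4 clusters, and within a cluster the order of the genes along the chromosome matches the order in which they are switched on in time and along the body axis. Paralogue groups, numbered in the gene symbols, hold the related genes of different clusters: low numbers act in the hindbrain and neck, middle numbers in the trunk, and high numbers in the lumbar, tail, limb and genital regions. In undifferentiated ES cells the clusters are a textbook target of Polycomb repression, and they are switched on during differentiation. A guide that disables a gene needed for growth or survival is lost from the pool over time, and a guide that confers an advantage gains share.

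Hoxa3 and Hoxb2 had the highest and the lowest median change among the Hox genes, and all of their kept guides are shown because the guides of 1 gene did not all behave alike. The sequences are the 20-base protospacers as deposited, written 5′ to 3′, and the guides of each gene run from the highest to the lowest change at day 12.
Hoxa3 guide 5: tcgatggtactcaacgccat
Hoxa3 guide 3: tcggctgccatggactacgg
Hoxa3 guide 6: aacgccatcggtgcccagag
Hoxa3 guide 4: aggtgagttaggccaaagag
Hoxa3 guide 10: gtgggcagtaaggtccgtgt
Hoxa3 guide 7: gcttgtctgcgcaccctgag
Hoxa3 guide 1: gacagctcagcgatctacgg
Hoxa3 guide 9: ggtctttcttgtacttcatg
Hoxa3 guide 8: tggtggtgtccgctgcccag
Hoxa3 guide 2: aacactaagcagaaaaccag
Hoxb2 guide 3: tgatggtgatccgacctcgg
Hoxb2 guide 6: cctttcggtgaggtccagca
Hoxb2 guide 4: gcagcgatctcgacgcgacg
Hoxb2 guide 5: ttgaaatgtctccaagacag
Hoxb2 guide 7: ggggaaggaagtcagacact
Hoxb2 guide 10: ggcacaggtacttattgaag
Hoxb2 guide 8: gctccctggtctctgaaggg
Hoxb2 guide 2: tttcatccaggggaactcgg
Hoxb2 guide 1: accgacgcatgaaacacaag

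The single Hox guides with the 3 highest and the 3 lowest changes at day 12 came from 6 different genes, with Hoxb2 guide 1, printed above, among the lowest.
Hoxb8 guide 4: gctgggaccgtacaccacgg
Hoxc4 guide 10: cgatccttctccttcgggtc
Hoxc12 guide 7: gccgtattcgaagttgcagc
Hoxa2 guide 4: ctggatgaaggagaagaagg
Hoxd10 guide 2: gcccactaaagtctcccaag

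Total reads were 3541896 and 1350234 in the plasmid libraries and 1063071, 1082489 and 1008492 at days 5, 8 and 12. After removal of guides with under 30 reads in either plasmid library, 326 of the 370 Hox guides were kept, 7 to 10 per gene, so every Hox gene was measured. Of the 44 guides left out, 3 had no read in either plasmid library. Median depth per kept Hox guide was 187 and 72 reads in the plasmid pool and 62, 65 and 63.5 reads at days 5, 8 and 12, and no kept Hox guide fell to 0 in any library. The share of all reads on Hox guides was 2.24% and 2.22% in the plasmid pool and 2.45%, 2.56% and 2.57% at the 3 days.

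A guide's change is the log2 ratio of its scaled CPM (plus 1), its reads relative to library size, in a day's library over the mean of the plasmid libraries. Libraries were scaled with TMM factors, which place the typical guide near 0, and a gene's value is the median over its kept guides. Between the plasmid libraries themselves the Hox gene medians ran from -0.28 (Hoxb7) to 0.16 (Hoxb6), with an SD of 0.09 over genes. Single Hox guides differed between the plasmid libraries with an SD of 0.27.

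No Hox gene moved 2-fold in either direction at any day. The median over the 37 genes was 0.17, 0.25 and 0.19 at days 5, 8 and 12, against 0.0077, 0.014 and 0.009 over all genes, and 30 of the 37 lay above 0 at day 12 (81.1%, against 50.8% of all genes). This direction depended on the reference, because guides with no target in the genome gained share too: their median was 0.41, 0.54 and 0.58, and against them the Hox median was -0.24, -0.29 and -0.40. At day 12, 1 Hox gene, Hoxa3, lay above the non-targeting median, as did 105 of all genes. Against the typical guide the Hox genes were thus mostly above, and against guides that cut nothing they were mostly below.

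The Hox genes also spread less than the library. Their day 12 medians ran from -0.84 (Hoxb2) to 0.79 (Hoxa3) with an SD of 0.32 over genes, and all genes had an SD of 0.90. Other families of developmental transcription factors also spread less than the library. Their SD was 0.45 over FOX genes, 0.38 over SOX genes and 0.55 over PAX and POU genes. With a 2-fold limit, 0 of 37 Hox genes were lower at day 5, 8 or 12, where 6.30%, 12.1% and 15.8% of all genes were. Likewise 0 of 37 were higher, where 0.0595%, 0.178% and 1.19% of all genes were. At day 12, 1 of 37 FOX, 0 of 18 SOX and 1 of 24 PAX and POU genes were lower by 2-fold, and 0 were higher. From day 5 to day 12 no Hox gene passed 2-fold either, against 7.02% of all genes lower and 0.832% higher, and the Hox median was 0.11 (below 0, at -0.064, against non-targeting guides). With 1 library per day these counts carry no test. Guides with at least 100 plasmid reads would put 2 Hox genes at or below -1, a setting in which the share over all genes was not counted.

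**Figure D1:**
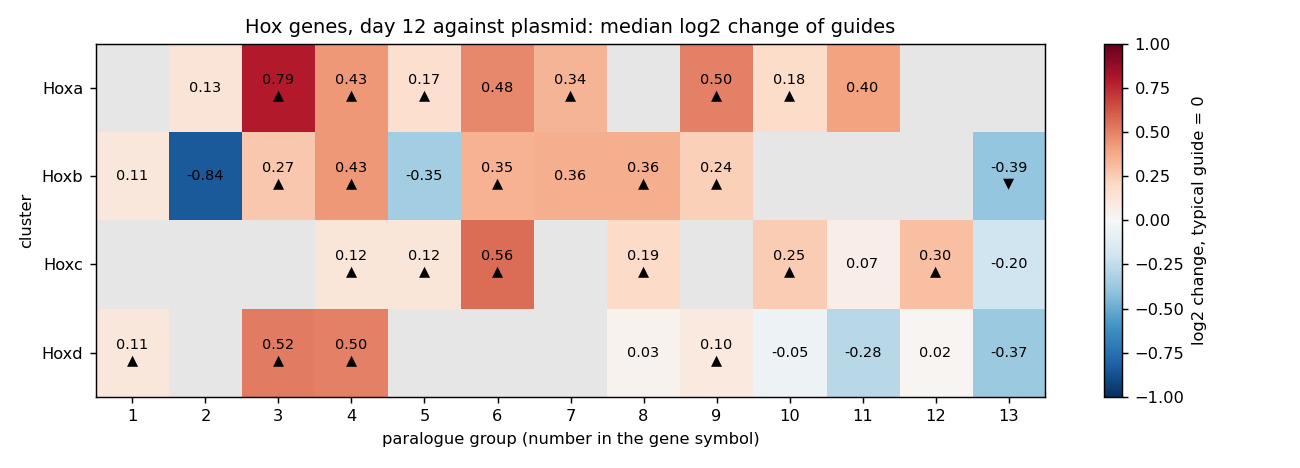
Median log2 change of the kept guides of each Hox gene, day 12 against plasmid, with clusters as rows and paralogue groups as columns; grey squares show no value, and triangles mark genes called higher (up) or lower (down) in the trend over days under TMM scaling. Values run from -0.84 (Hoxb2) to 0.79 (Hoxa3), and the 3 genes of group 13 are all below 0; scaled to non-targeting reads, none of the up triangles remains.

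A trend over days was tested on the reads summed per gene with edgeR's quasi-likelihood test, with the plasmid pool as day 0 and Benjamini-Hochberg adjustment over all 1682 genes. Under TMM scaling 21 of the 37 Hox genes rose (56.8%, against 34.7% of all genes) and 1, Hoxb13, fell (2.70%, against 25.2%), whereas scaled to the reads of the non-targeting guides 0 rose and 22 fell. In that second scaling 1.07% of all genes rose and 72.2% fell. The spread behind these tests is that of the plasmid pair and of departures from a straight course, with 3 residual degrees of freedom, and not that of replicate cultures.

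The genes called higher under TMM scaling were Hoxa3, Hoxa4, Hoxa5, Hoxa7, Hoxa9, Hoxa10, Hoxb3, Hoxb4, Hoxb6, Hoxb8, Hoxb9, Hoxc4, Hoxc5, Hoxc6, Hoxc8, Hoxc10, Hoxc12, Hoxd1, Hoxd3, Hoxd4 and Hoxd9. Of these, Hoxa5, Hoxa7, Hoxa10, Hoxb9, Hoxc10 and Hoxd9 were called lower once scaled to non-targeting reads. The other 15 were called in neither direction in that scaling. Hoxb13 fell under both scalings. Over 11 alternatives, Hoxc12 kept its call higher in 4, Hoxc10 in 5, and Hoxb9, Hoxc5 and Hoxd9 in 6. Hoxc4 kept it in 7, and the remaining genes called higher kept it in 8 to 10.

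Single guides spread more widely than the gene medians. At day 12 the 326 Hox guides had a median of 0.24, with quartiles at -0.27 and 0.64 and a range from -4.23 to 2.66. Of them, 32 (9.82%) were at or below -1, against 21.5% of all guides to genes and 3.36% of the 893 non-targeting guides. At or above 1 were 34 (10.4%), against 7.39% of guides to genes and 22.3% of non-targeting guides. The non-targeting guides ran from -2.67 to 2.82 at day 12, with an SD of 0.70. Of the Hox guides only Hoxa2 guide 4 (-4.23) and Hoxb2 guide 1 (-2.76) lay outside that range. In edgeR's trend test per guide under TMM scaling, 76 Hox guides rose (23.3%, against 16.1% of guides to genes and 45.5% of non-targeting guides), a number that became 13 when scaled to non-targeting reads (3.99%, against 2.49% of guides to genes). In the same test 33 Hox guides fell (10.1%, against 24.0% of guides to genes and 4.82% of non-targeting guides), which became 102 (31.3%, against 48.9%). In the 2-fold counts and in the TMM-scaled trend, the Hox shares lay between those of all guides to genes and those of the guides without a target.

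**Figure D2:**
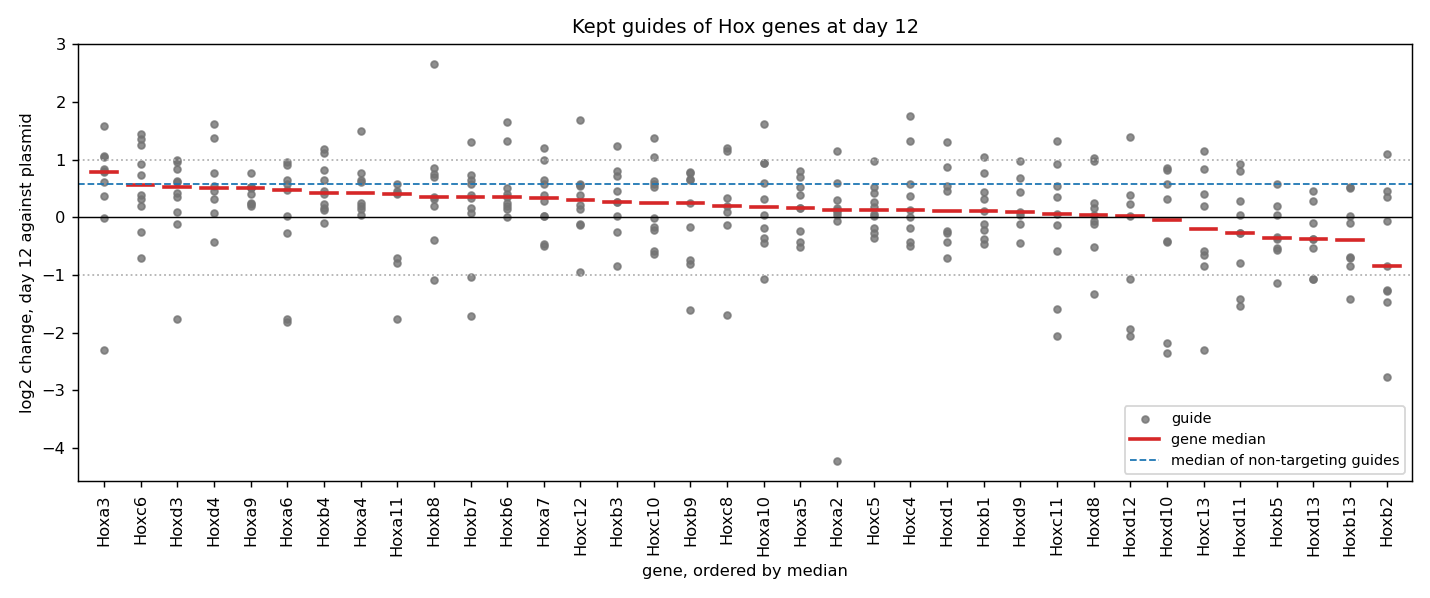
Log2 change of the kept guides of the Hox genes shown, day 12 against plasmid (grey points), by gene in the order of the gene medians (red bars); the dashed line is the non-targeting median of 0.58 and dotted lines mark 2-fold. No red bar crosses a dotted line, and the lowest single point, at -4.23, belongs to Hoxa2.

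Guides of the same gene often disagreed. The SD over the guides of a gene at day 12 had a median of 0.72 over the 37 genes, from 0.18 in Hoxa9 to 1.56 in Hoxa2, and a median of 0.77 over all genes. In 3 genes, Hoxa4, Hoxa9 and Hoxb6, all kept guides were above 0, and in no gene were all below 0. In 19 of the 37 genes at least 1 guide was called higher and at least 1 lower in the trend per guide under TMM scaling (51.4%, against 36.9% of all genes).

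Hoxa3 of paralogue group 3, which patterns the pharyngeal arches, thymus and neck, had the highest median of the family. RefSeq gives its transcripts a span on chromosome 6 from 52169059 to 52213067, which overlaps the neighbouring Hoxa4, Hoxa5 and Hoxa6. Its 10 kept guides held 2573 and 1029 reads in the plasmid libraries and 905, 1051 and 1025 at days 5, 8 and 12, which is 743, 770, 872, 1003 and 1117 scaled CPM. Every day's value was above both plasmid values, and each was above that of the day before. The guide median was 0.17, 0.58 and 0.79 at the 3 days, with an SD of 1.06 over guides at day 12, and 2.20% of all genes had a higher median.

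The Hoxa3 trend was called higher by edgeR's quasi-likelihood test under TMM scaling (slope 0.0479 log2 per day, adjusted p = 0.00097). It was called in 10 of 11 alternatives, with adjusted p from 1.71e-06 to 0.328. Scaled to non-targeting reads the slope turned to -0.0111, and that is where the adjusted p was 0.328.

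By guide, 8 of the 10 Hoxa3 guides were above 0 at day 12. Guides 5, 3 and 6 reached 1.58, 1.07 and 1.04, and guides 4, 10, 7, 1 and 9 lay at 0.84, 0.80, 0.79, 0.62 and 0.37. Guide 8 was at -0.0043. Guide 2 stood alone at -2.30, a value inside the range of the non-targeting guides (-2.67 to 2.82). Its reads were 491 and 166 in the plasmid libraries and 35, 31 and 24 at the 3 days. This fall was already in place at day 5 (edgeR adjusted p = 4.8e-05 per guide, and 2.99e-05 scaled to non-targeting reads). Of the guides that rose, guide 5 was also called scaled to non-targeting reads (adjusted p = 0.0176), with 102 and 39 plasmid reads and 61, 64 and 82 afterwards.

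Hoxb2, a hindbrain gene of paralogue group 2, had the lowest median of the family, and the gene as a whole did not pass the test. Its 9 kept guides held 2029 and 728 plasmid reads and 525, 522 and 479 reads at days 5, 8 and 12, or 586, 545, 506, 498 and 522 scaled CPM. All 3 days lay below both plasmid values, by amounts like the distance between the plasmid libraries. The guide median was -0.36, -0.53 and -0.84 with an SD of 1.20 over guides at day 12, and the summed trend had an adjusted p of 0.215 (edgeR). Over its alternatives that p ran from 0.00217 to 0.695, the lowest when scaled to non-targeting reads.

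The median and the sum of Hoxb2 differ because the guides split. Guide 3 was at 1.10, and its 320 and 101 plasmid reads became 118, 133 and 166. It rose under TMM scaling (edgeR adjusted p = 0.00158) and not when scaled to non-targeting reads (adjusted p = 0.241). Guides 6, 4 and 5 lay at 0.46, 0.36 and -0.056, of which guide 5 was called lower to non-targeting reads only (adjusted p = 0.0318). The 5 remaining guides all fell in the test per guide under both scalings, with day 12 values of -0.84 (guide 7), -1.26 (guide 10), -1.28 (guide 8), -1.47 (guide 2) and -2.76 (guide 1). Guide 8, the most deeply read of them, went from 511 and 182 plasmid reads to 91, 74 and 53, and guide 1 from 104 and 54 to 6, 12 and 4.

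**Figure D3:**
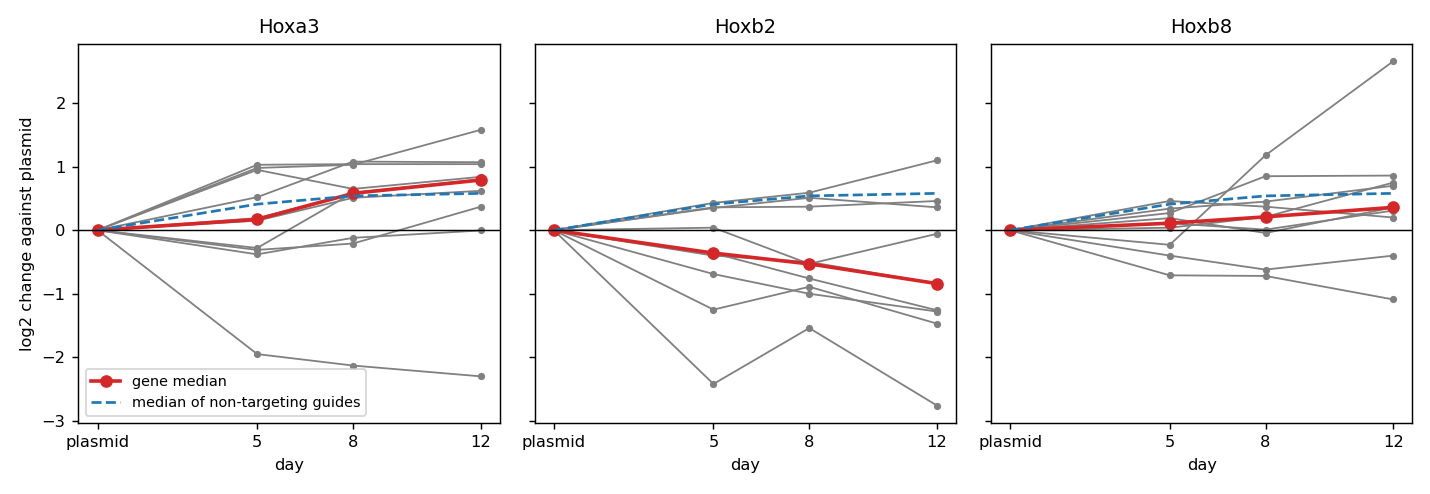
Log2 change against plasmid by day for each kept guide (grey lines) of Hoxa3, Hoxb2 and Hoxb8, with the gene median (red) and the median of non-targeting guides (dashed). The Hoxa3 median reaches 0.79, above the dashed 0.58, the Hoxb2 median falls to -0.84, and 1 Hoxb8 guide climbs to 2.66 apart from the others.

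In paralogue groups 3, 4 and 9 every measured gene was called higher under TMM scaling, where 34.7% of all genes were. In groups 2, 11 and 13 none was. Scaled to non-targeting reads, no gene of groups 3 and 4 was called in either direction, and Hoxb9 and Hoxd9 of group 9 were called lower. Corrected for GC, the day 12 medians of groups 3, 4 and 9 were 0.45, 0.079 and 0.13, against 0.52, 0.43 and 0.24 before. In group 3 the day 12 medians were 0.79 (Hoxa3), 0.52 (Hoxd3) and 0.27 (Hoxb3). Hoxd3, another gene of the neck vertebrae, had 2401 and 908 plasmid reads and 814, 970 and 913 reads at the 3 days. That is 693, 680, 784, 926 and 995 scaled CPM, each later day above the one before (edgeR adjusted p = 0.00104 with TMM scaling, 0.279 to non-targeting reads).

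Group 4 genes had medians of 0.50 (Hoxd4), 0.43 (Hoxa4), 0.43 (Hoxb4) and 0.12 (Hoxc4). Hoxd4, a retinoic acid-responsive hindbrain gene, had the smallest adjusted p of the family: its reads were 1639 and 591 in the plasmid pool and 580, 672 and 660 later, or 473, 442, 559, 642 and 719 scaled CPM. Its trend rose by 0.0555 log2 per day under TMM scaling (edgeR adjusted p = 0.000418), and the slope was -0.00349 to non-targeting reads (adjusted p = 0.772). Hoxa4, with 8 of 8 guides above 0, and Hoxb4, a gene known for its use in expanding blood stem cells, with 9 of 10, gave less spread between guides (SD 0.48 and 0.43). The guides of group 4 were rich in G and C, with a mean of 13.1 of 20 bases against 11.8 over all Hox guides.

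The other anterior genes showed less. Hoxb1, which acts early in the hindbrain, and Hoxd1 had small positive medians of 0.11 each, and Hoxd1 was called higher in TMM scaling (edgeR adjusted p = 0.00318) but not to non-targeting reads (0.0849). Hoxb1 was not called under TMM scaling and was called lower to non-targeting reads (edgeR adjusted p = 0.0057). Hoxa2, which sets the identity of the second pharyngeal arch, had a median of 0.13 and the widest spread of the family. Summed over its guides it was called lower to non-targeting reads only (edgeR adjusted p = 0.00443). Its guide 4 had the lowest change of any kept Hox guide, with 482 and 189 plasmid reads and 34, 19 and 6 at days 5, 8 and 12. At day 12 that is 0.0534 times the plasmid level (log2 -4.23, edgeR adjusted p = 5.67e-07 per guide, and 8.74e-07 scaled to non-targeting reads). This guide made up 19.4% of the gene's reads in the first plasmid library and 0.909% at day 12. The other 8 Hoxa2 guides held 2002 and 748 plasmid reads and 616, 698 and 654 later, a summed log2 change of 0.32.

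Among the central genes, paralogue groups 5 to 8, the highest median was that of Hoxc6 (0.56, SD 0.71 over guides), a thoracic gene. Its reads were 2716 and 1076 in the plasmid pool and 971, 1145 and 1143 later, or 784, 805, 936, 1093 and 1246 scaled CPM. All 3 days were above both plasmid values (edgeR adjusted p = 0.000577 with TMM scaling, 0.724 to non-targeting reads). Hoxa6 (0.48) and Hoxb6 (0.35), its paralogues, lay close by, and of the 2 Hoxb6 was called higher under TMM scaling only. Hoxa6 was not called under TMM scaling and was called lower to non-targeting reads (edgeR adjusted p = 0.0172). Hoxb5 had a median of -0.35, with 1297 and 492 plasmid reads and 340, 370 and 289 later. Its trend was not called under TMM scaling (edgeR adjusted p = 0.275), and it was called lower to non-targeting reads (adjusted p = 0.00462).

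Hoxb8, a trunk gene also used to hold blood progenitors in an immature state, had the steepest summed trend of the family, and 1 guide carried much of it. The gene's reads were 1771 and 663 in the plasmid libraries and 569, 689 and 863 at days 5, 8 and 12 (511, 496, 548, 658 and 941 scaled CPM). The trend rose by 0.0691 log2 per day under TMM scaling (edgeR adjusted p = 0.000626), and to non-targeting reads the slope was 0.0107 (adjusted p = 0.539). Guide 4 had 204 and 79 plasmid reads and 52, 141 and 348 at the 3 days, so that it lay below the plasmid level at day 5 (-0.23) and 6.34-fold above it at day 12. It made up 11.5% of the gene's reads in the first plasmid library and 40.3% at day 12. The other 8 guides summed to 1567 and 584 plasmid reads and 517, 548 and 515 later, which takes the gene's summed change at day 12 from 0.90 to 0.34.

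Hoxb8 guide 4 rose in the test per guide in both scalings (edgeR adjusted p = 4.34e-05 with TMM, 0.00175 to non-targeting reads), and the next highest guide of the gene was below 1. Hoxc4 guide 10 also rose in both (3.71e-04 and 0.0153), with 95 and 32 plasmid reads and 31, 63 and 82 later. Hoxc12 guide 7 had 123 and 44 plasmid reads, 30 and 21 at days 5 and 8, and 103 at day 12, and it rose under TMM scaling (adjusted p = 0.0309) but not to non-targeting reads (0.308). All 3 guides reached their highest share in the day 12 library, and all 3 lay inside the range of the non-targeting guides, which reached 2.82.

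Posterior genes, groups 9 to 13, had a median of 0.081 over 14 genes, with 9 above 0, against 0.25 over the 12 anterior genes (11 above 0) and 0.34 over the 11 central ones (10 above 0). Corrected for guide GC content along the non-targeting guides, these medians were -0.011, 0.033 and 0.017. Scaled to non-targeting reads, 12 of the 14 posterior genes fell in the trend (edgeR), against 4 of 12 anterior and 6 of 11 central genes, where 72.2% of all genes did. The difference between these classes was not tested.

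The high end of the posterior genes was Hoxa9 (0.50), best known as a leukaemia oncogene. Its 9 guides ran only from 0.20 to 0.76 at day 12, the narrowest range of the family (SD 0.18). At days 5 and 8 their SD was 0.42 and 0.49, with 2 of the 9 guides below 0 at each. The reads of Hoxa9 were 2100 and 792 in the plasmid pool and 734, 781 and 782 later, or 606, 593, 707, 746 and 852 scaled CPM. The days lay above both plasmid values under TMM scaling (edgeR adjusted p = 0.00109), and the slope was -0.0174 to non-targeting reads (adjusted p = 0.126). Hoxa10, Hoxb9, Hoxc10, Hoxc12 and Hoxd9 had medians of 0.18, 0.24, 0.25, 0.30 and 0.097.

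At the other end, the group 13 genes, which act in the tail, digits and genital tract, all had medians below 0 at day 12: Hoxb13 -0.39, Hoxd13 -0.37 and Hoxc13 -0.20. Hoxb13, known for its role in the prostate, had 2278 and 780 plasmid reads and 571, 522 and 475 later, or 658, 584, 550, 498 and 518 scaled CPM. All days were below both plasmid values, and the gap between the plasmid libraries was larger than that between the second one and day 5. It fell in the trend (slope -0.0267 log2 per day, edgeR adjusted p = 0.0304), also to non-targeting reads (0.000979), but the call was lost without the first plasmid library or the day 8 library (adjusted p from 0.000979 to 0.229 over all alternatives). Hoxd13 and Hoxc13 were not called under TMM scaling and fell when scaled to non-targeting reads.

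The Hoxd cluster's 5' genes sat near or below 0. Hoxd11 was at -0.28, Hoxd10 at -0.051 and Hoxd12 at 0.018, with SDs over guides of 0.88, 1.28 and 1.29, and none of the 3 was called under TMM scaling, whereas all 3 were called lower to non-targeting reads (edgeR adjusted p = 0.00695, 0.00376 and 0.0123). Hoxd10 guide 2 fell to -2.35 (125 and 37 plasmid reads, then 6, 15 and 5). By cluster the day 12 medians were 0.37 for Hoxa (10 of 10 genes above 0), 0.25 for Hoxb (7 of 10), 0.15 for Hoxc (7 of 8) and 0.032 for Hoxd (6 of 9). The order of the clusters changed with the GC correction, to 0.061, -0.034, 0.099 and 0.015. Within each cluster the lowest and highest genes were Hoxa2 and Hoxa3, Hoxb2 and Hoxb4, Hoxc13 and Hoxc6, and Hoxd13 and Hoxd3.

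Base composition moved with all of these values. Hox guides held a mean of 11.8 G or C bases of 20, guides to all genes 10.8 and non-targeting guides 11.1, and 21.2% of Hox guides had 14 to 19 such bases against 9.01% of guides to other genes. At day 12 the Hox median was -0.59 for guides with 3 to 9 G or C bases (n = 38), 0.19 with 10 to 11 (n = 105), 0.32 with 12 to 13 (n = 114) and 0.48 with 14 to 19 (n = 69). Guides to other genes ran from -0.53 through -0.089 and 0.14 to 0.36 over the same classes. Non-targeting guides ran from 0.15 through 0.58 and 0.66 to 0.80. All 3 kinds of guide were higher where they held more G and C.

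The change per added G or C base at day 12 was 0.146 for Hox guides, 0.16 for guides to other genes and 0.125 for non-targeting guides. It was nearly as steep at day 5, at 0.116, 0.123 and 0.126. From day 5 to day 12 it was 0.0304, 0.0373 and -0.0014, so most of the slope was in place by the first time point. Corrected along the line of the non-targeting guides, the Hox median was -0.031, 0.012 and 0.015 at days 5, 8 and 12, against -0.032, -0.014 and -0.022 for all genes. Set against non-targeting guides of the same GC content, it was -0.32, -0.40 and -0.46, against -0.32, -0.43 and -0.49. On that footing the Hox median lay close to the library's median at each day.

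**Figure D4:**
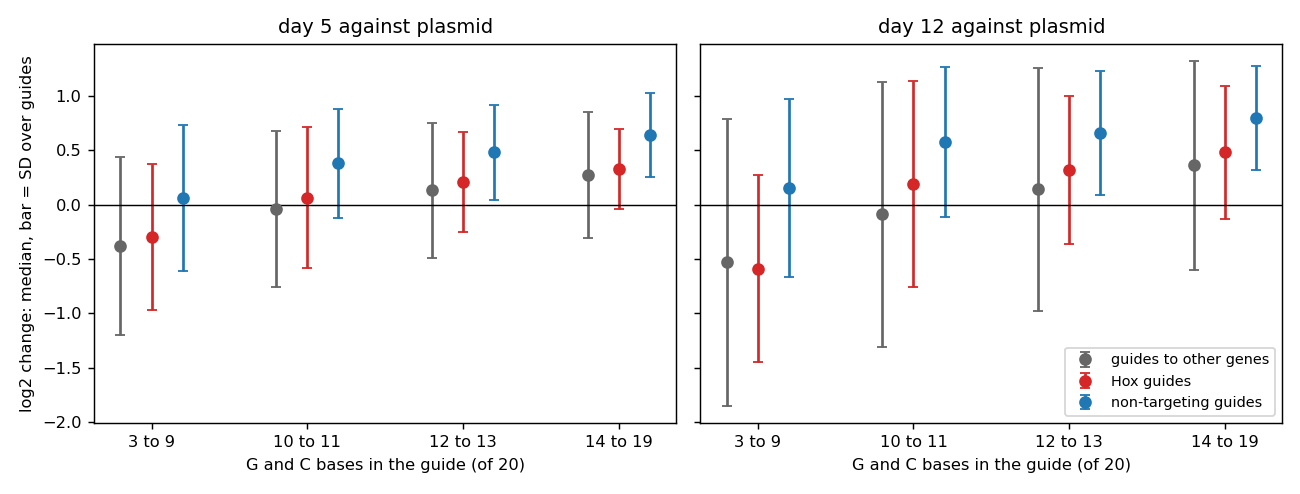
Median log2 change against plasmid (points) with the SD over guides (bars) by number of G and C bases, for guides to other genes, Hox guides and non-targeting guides, at day 5 (left) and day 12 (right). At day 12 the Hox medians climb from -0.59 to 0.48 across the classes, and the non-targeting medians, from 0.15 to 0.80, are higher in every class.

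The homeodomain, which binds DNA, is the part Hox proteins share, and its recognition helix carries the letters WFQNRR. Translated in all frames, 4 Hox guides coded for at least 5 of these 6 letters, and they are shown because they place a guide in that helix. Guides over fewer of the letters can lie there too and were not searched for. Capitals mark the bases of the matched codons.
Hoxa11 guide 8: gTTTCAGAACAGAAGAatga
Hoxc13 guide 8: GCGTCGATTCTGGAACCAga
Hoxd13 guide 10: gTTTCAGAATCGAAGGgtga
Hoxb13 guide left out by the read filter: CCGGCGGTTCTGAAACCAga

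Of these, the Hoxa11 and Hoxc13 guides fell and the Hoxd13 guide did not pass the test. The Hoxa11 guide had 413 and 123 plasmid reads and 46, 47 and 28 later (log2 -1.76 at day 12, edgeR adjusted p = 0.000277 per guide). The Hoxc13 guide had 167 and 61 plasmid reads and 13, 10 and 8 later (-2.30, adjusted p = 0.000207). The Hoxd13 guide, with 179 and 45 plasmid reads and 41, 54 and 54 later, was at 0.45 (adjusted p = 0.349). The Hoxb13 guide had 58 and 23 plasmid reads and 10, 12 and 6 later. The Hoxa11 and Hoxd13 guides held 7 and 9 G or C bases, the Hoxc13 guide 11. Their day 12 values lay inside the range of the non-targeting guides (-2.67 to 2.82).

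Hox paralogues can share guide sites, so each guide was compared base by base, as written, with those of the other Hox genes. No guides of different Hox genes were closer than 4 mismatches, and 11 pairs had exactly 4. The pairs below are some of those where both guides were kept, chosen after seeing the values, with mismatched bases in capitals.
Hoxb13 guide 3: agttTatCaCTaaggacaag
Hoxd13 guide 3: agttCatTaACaaggacaag
Hoxa5 guide 9: TaaGctgaaaagCatgagtA
Hoxb5 guide 8: CaaActgaaaagTatgagtC
Hoxc6 guide 9: CAttggcGatctcgatgcgC
Hoxd1 guide 9: AGttggcTatctcgatgcgT

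The Hoxb13 and Hoxd13 guides of the first pair both fell, to -1.41 and -1.07. Their reads went from 540 and 151 to 81, 56 and 46, and from 91 and 35 to 16, 9 and 11 (edgeR adjusted p = 0.000402 and 0.0217 per guide). The Hoxa5 and Hoxb5 guides were at -0.51 and -1.13, neither called under TMM scaling and both called lower to non-targeting reads (adjusted p = 0.0148 and 0.048, edgeR per guide). In that scaling 48.9% of guides to genes were called lower. The guides of this pair and of the first pair each held 7 G or C bases. Hox guides with 3 to 9 such bases had a median of -0.59 at day 12. The Hoxc6 and Hoxd1 guides were at 0.39 and 0.46 and were called in neither scaling. The Hoxa11 and Hoxd13 homeobox guides above, also 4 mismatches apart, lay at -1.76 and 0.45. A Hoxb6 and a Hoxd4 guide at the same distance, not printed, lay at 1.33 and 0.31.

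Since no genome of the build was used here, guides were placed only where they lay in RefSeq's promoter windows (GRCm38.p6), and 5 did. These are shown because each sits at the start of another transcript as well as within the span of its Hox gene.
Hoxa11 guide at chr6:52245266-52245285, minus strand: cgagacggcttacggcaccc
Hoxd8 guide at chr2:74705572-74705591, minus strand: gccttgtacttggagtacag
Hoxd8 guide at chr2:74705574-74705593, plus strand: gtactccaagtacaaggcgg
Hoxd8 guide at chr2:74705812-74705831, plus strand: ggccaggactacttccacgc
Hoxd8 guide at chr2:74705817-74705836, plus strand: ggactacttccacgccggcg

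The Hoxa11 guide, in the window of the antisense gene Hoxa11os, changed by 0.40 at day 12. The Hoxd8 guides, in the window of the predicted gene Gm38462, changed by 1.02, 0.24, -0.057 and 0.16 in the order printed. The first and the next Hoxd8 guide overlap on opposite strands by all but 2 bases and still gave different values.

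Other families of developmental transcription factors gave like values. At day 12 the median was 0.22 over 37 FOX genes, 0.37 over 18 SOX genes and 0.36 over 24 PAX and POU genes, against 0.19 for Hox. Under TMM scaling 17, 13 and 16 of them rose and 4, 1 and 1 fell in edgeR's trend, whereas scaled to non-targeting reads 0, 0 and 1 rose and 21, 9 and 9 fell. All genes gave 34.7% higher and 25.2% lower under TMM scaling, and 1.07% and 72.2% to non-targeting reads. Corrected for GC their medians were 0.087, 0.12 and 0.17, all above the Hox value of 0.015. Whether Hox differs from these families was not tested.

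Of 11 TALE homeodomain genes, the cofactors that bind DNA beside Hox proteins and the related TGIF repressors, 3 rose under TMM scaling (Meis1, Pbx3 and Pknox2) and 2 fell (Pbx2 and Pknox1), whereas scaled to non-targeting reads 0 rose and 8 fell, Pknox2 among them. Under TMM scaling that is 27.3% and 18.2% of the list, against 34.7% and 25.2% of all genes, and the 8 that fell to non-targeting reads are 72.7%, against 72.2%, so the counts were near those of the library. Their median was -0.05 at day 12. Meis1 had 9 of 9 guides above 0 and a median of 0.42 (edgeR adjusted p = 0.00389 with TMM, 0.212 to non-targeting reads), and Pbx2 was lowest at -0.67 (0.00208 and 0.000197).

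Of the 8 activators that switch Hox genes on (the caudal factors, hindbrain factors and retinoic acid receptors), 5 rose and 0 fell under TMM scaling, and to non-targeting reads 1 rose and 2 fell. These are 62.5% higher under TMM scaling, against 34.7% of all genes, and 12.5% higher and 25% lower to non-targeting reads, against 1.07% and 72.2%. The gene that rose in both was Rarg, a retinoic acid receptor: its reads were 3096 and 1161 in the plasmid pool and 858, 1530 and 2510 at days 5, 8 and 12. Its median of 1.44 (SD 0.35, 9 of 9 guides above 0) lay above every Hox gene (edgeR adjusted p = 0.00132 with TMM, 0.0466 to non-targeting reads). Of 5 listed genes that neighbour the clusters or are ParaHox genes other than the caudal factors, 4 were measured. Their median was 0.15, and 2 rose under TMM scaling (34.7% of all genes did), whereas 3 fell to non-targeting reads (72.2% of all genes did).

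The chromatin regulators that keep Hox genes silent or active spread as widely as the library, with an SD of 0.95 between gene medians at day 12 against 0.90 over all genes and 0.32 over Hox genes. Of 16 listed, 13 were measured, with a median of -0.31 at day 12: under TMM scaling 3 rose (Ezh2 and Cbx7 among them) and 5 fell (Men1, Eed, Jarid2, Rnf2 and Pcgf2), and to non-targeting reads Ezh2 rose and 10 fell. These are 23.1% and 38.5% of the list, against 34.7% and 25.2% of all genes, and then 7.69% and 76.9%, against 1.07% and 72.2%. Rnf2, a catalytic subunit of Polycomb repressive complex 1, was lowest at -1.93 (edgeR adjusted p = 0.000155). Ezh2, a methyltransferase of Polycomb repressive complex 2, was highest at 1.54 with 10 of 10 guides above 0 (0.000359 with TMM, 0.0222 to non-targeting reads). Its partners Eed and Jarid2 lay at -1.03 and -1.66, so genes of 1 complex moved in opposite directions, and Suz12, at -0.63, was not called in either scaling.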

How the data were processed

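The authors deposited unnormalized counts of reads for every guide in 5 libraries. The submitters' processing notes name cutadapt, Bowtie, featureCounts and mm10 without versions; how reads were matched to guides is not given in the sources used here. The titles count days after transduction, the treatment protocol from selection. A guide needed at least 30 reads in each plasmid library (15336 kept). Counts were scaled with TMM factors (edgeR 4.0.16, R 4.3.3), and log2 ratios used a pseudocount of 1. Trends were fitted with edgeR's quasi-likelihood test at an adjusted p of 0.05, with DESeq2 1.42.0 as an alternative. The edgeR test was also run on simulated data with straight changes over days and no GC effect. Those data do not stand for the real non-targeting guides, of which 45.5% were called higher and 4.82% lower under TMM scaling. PCR reads without molecular identifiers are not independent molecules. The members, lists and alternatives were chosen with earlier results of these data known. Named were the 4 highest and 4 lowest medians, cluster extremes, called genes and listed pathway genes. The single guides in pairs 4 mismatches apart were chosen after seeing the values. RefSeq (GRCm38.p6) matched 37 of 37 Hox symbols. Some members enter the counts and medians but are not reported here by name.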

Additional observations from a re-analysis of the deposited data

How the results depend on the processing

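Each day is 1 library, so no value here holds a spread between cultures, and at a median of 62 to 65 reads per Hox guide small changes of single guides cannot be resolved. The family's direction depended on the scaling and on guide GC content, and the non-targeting line was added after seeing the data. Scaled to the non-targeting median, the Hox medians were -0.24, -0.29 and -0.40 at days 5, 8 and 12 and -0.064 from day 5 to day 12; at the same GC they were -0.32, -0.40, -0.46 and -0.074. With the GC correction the 3 days gave -0.031, 0.012 and 0.015. With means over guides, days 5 and 8 gave 0.092 and 0.17, and day 12 against day 5 gave 0.032. Scaling to total reads gave 0.075 at day 12 and 0.0063 for day 12 against day 5, no read filter 0.27 at day 12, and at least 100 plasmid reads 0.039 for day 12 against day 5. Leaving out either plasmid library gave 0.20 to 0.23 at day 8 and 0.19 to 0.27 at day 12.

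Hox genes lower by 2-fold numbered 2 with at least 100 plasmid reads, 1 at the non-targeting median and 3 at the same GC, and 0 were higher in every alternative run. In the main run 15.8% of all genes and 21.5% of guides to genes were lower by 2-fold at day 12. Those shares were not counted in the other settings, so the 2-fold counts given here cannot be set against the library. Hox guides past 2-fold at day 12 numbered 12 lower and 9 higher among the 108 with at least 100 reads in each plasmid library. Among the 326 kept guides they numbered 67 and 6 at the non-targeting median, and 67 and 4 at the same GC. The day 12 median over all genes was itself -0.57 and -0.49 in these settings. The GC correction left 21 higher. In the trend per gene, 3 fell and 18 rose by DESeq2 (8.11% and 48.6%, against 30.4% and 28.1% of all genes). Scaled to non-targeting reads 22 fell (59.5%, against 72.2%) and 0 rose. With at least 100 plasmid reads 4 fell and 15 rose (10.8% and 40.5%, against 26.2% and 23.8%). Without the day 8 library 0 fell (22.9% of all genes did), and without the day 12 library 3 (8.11%, against 26.3%). Without the first plasmid library 0 fell and 16 rose, where 19.4% and 24% of all genes did. Without the second 1 fell and 14 rose, where 21.2% and 24% did. Scaling to total reads left 16 rising (43.2%, against 22.9%). Per guide, 102 fell and 13 rose scaled to non-targeting reads (31.3% and 3.99%, against 48.9% and 2.49% of guides to genes). Of the 108 guides with at least 100 plasmid reads, 15 fell and 31 rose (13.9% and 28.7%, against 26.7% and 20%). Without either plasmid library 17 to 24 fell (5.21% to 7.36%, against 15.1% to 16.8% of guides to genes). In the same runs 42 to 45 rose (12.9% to 13.8%, against 8.29% to 8.99%). Pseudocounts of 0.5 and 5 moved no median beyond the spread between the plasmid references. No paired analysis was possible because each day has 1 library and only the plasmid pool is replicated.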
